A study of Homo sapiens with 88 samples.

Results

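The genes described here encode voltage-gated calcium and sodium channels and potassium channels of every class. They were chosen by symbol: any gene that starts with KCN or CACN, or that reads SCN, a number and A or B, in the annotation of the array, from probe sets assigned to 1 gene. This choice was made with earlier results of these data known. The array held 135 such genes on 277 probe sets. A gene was tested if the mean of at least 1 group of arrays lay above 7.41, the median of all deposited log2 values, which left 103 of the 135 among 15352 tested genes in all, and 32 were not tested. Just below that limit lay SCN2B, KCNMA1-AS1 and KCNK4, whose highest group means were 7.38, 7.39 and 7.41, and just above it KCNRG, CACNA1G-AS1 and KCNMB1, at 7.49, 7.54 and 7.57.

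RNA of 9 established human small cell lung cancer (SCLC) lines was hybridised to 88 Affymetrix HG-U133 Plus 2.0 arrays. Cells received a treatment that the sample titles call 552A, or the vehicle DMSO. The treatment protocol in the labels names GSK2879552 at 1 µM, which blocks the histone demethylase LSD1 (gene KDM1A), but no label ties the name 552A to it. A time course with 552A and DMSO samples at days 2, 4 and 7 covered COLO668, SHP-77, NCI-H146, NCI-H446, NCI-H510 and NCI-H526, while day 4 was the single time for H1417, H2171 and H69. The 552A arm held 8 arrays in SHP-77, 7 in NCI-H526, 6 in each of COLO668, NCI-H146, NCI-H446 and NCI-H510, and 2 in each of H69, H2171 and H1417. The DMSO arm held 7 arrays in NCI-H446, 6 in each of the other time course lines and 2 in each day 4 line. Each line stands for 1 tumour. The labels leave unsaid whether arrays of 1 group are separate cultures, and which lines are sensitive or resistant to the compound.

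Ion channels of these families open or close with the membrane voltage, with calcium, or at rest, and together they set how readily a cell fires an action potential. A channel consists of a pore subunit, which conducts the ion and gives the channel its type, and of auxiliary subunits that set its amount at the membrane and its kinetics. SCLC cells usually carry a neuroendocrine program. They are known to fire action potentials and to release peptides when calcium enters, and antibodies against their P/Q-type calcium channels cause Lambert-Eaton myasthenic syndrome in some patients. LSD1 removes methyl groups from histone tails, often together with the CoREST repressor complex, which silences neuronal genes in other tissues.

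Array medians lay between 7.36 and 7.46. The gap between the 3' and 5' probe sets of ACTB, which widens as RNA degrades, exceeded 0.8 on 5 day 7 arrays of SHP-77 and COLO668. On the other arrays it reached at most 0.73, on COLO668 552A day 2 replicate 2. NCI-H446 DMSO day 4 replicate 2 had an interquartile range of 2.56, against a median of 3.05 over all arrays. Counts of calls of higher and lower signal by line, and the calls named below that were lost without these 6 arrays, are given without them too. COLO668 then kept 1 array of each arm at day 7, and SHP-77 kept 1 DMSO array at that day. Of 6 neuroendocrine markers, 5 or 6 lay above the limit of 7.41 in every line under DMSO, while 0 of 3 fibroblast markers and 1 of 3 immune markers did in each line. Of 3 tuft cell markers, 2 lay above it in NCI-H526, 1 in SHP-77 and in NCI-H510, and 0 in the other lines. NCI-H526 had AVIL at 13.05 and POU2F3 at 12.48, where POU2F3 stood at 4.54 to 4.79 in the other lines. The marker above the limit in SHP-77 and NCI-H510 was AVIL, at 7.48 and 8.30. Of 3 endothelial markers, 3 lay above the limit in NCI-H446 and 2 in the other lines. The endothelial gene CDH5 stood at 10.94 in NCI-H446 and at 5.07 to 5.57 in the other lines. The 2 endothelial markers above the limit in every line were PECAM1, at 8.06 to 8.40 over all lines, and VWF, at 7.61 to 7.97. The immune marker above the limit was CD3E, at 7.49 to 7.91. These differed little between lines, so a level above 7.41 alone need not mean that a gene is expressed. In such bulk samples, fewer cells of a type and less RNA per cell cannot be told apart.

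Under 552A, calls on the channel genes were mostly of lower signal. Levels are given as log2 array signals and changes as the log2 level under 552A minus that under DMSO, averaged over the days of a line, and ± gives the standard error of the limma fit unless SD is named. A change was called at an adjusted p below 0.05, Benjamini-Hochberg adjusted over all tested genes within the line. In NCI-H510, 10 channel genes rose and 23 fell, where 15% of all tested genes were called, 8.6% as higher and 6.44% as lower. In COLO668, 10 rose and 17 fell (background 21.2% called, 12.3% as higher and 8.81% as lower), and in NCI-H526 9 rose and 14 fell (background 21.1%, of which 10.7% higher and 10.5% lower). The share of channel genes called, 22.3% in NCI-H526 and 26.2% in COLO668, was near the background of those lines.

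H1417 had 7 channel genes higher and 12 lower (background 9.24%, with 5.53% higher and 3.71% lower), and NCI-H146 had 5 higher and 10 lower (background 6.39%, with 4.27% higher and 2.12% lower). In SHP-77 1 gene rose and 12 fell (background 8.14%, with 3.87% higher and 4.27% lower). Without the 6 arrays of doubtful quality the counts higher and lower were 5 and 11 in SHP-77, 12 and 14 in COLO668, 4 and 6 in NCI-H446 and 5 and 5 in H69. The same counts were 11 and 18 in NCI-H526, 11 and 26 in NCI-H510, 5 and 13 in NCI-H146, 10 and 14 in H1417 and 0 and 0 in H2171. The share of all genes called without these arrays is not given here. NCI-H446 had 4 in each direction (background 5.59%, with 4.31% higher and 1.28% lower), and H69 had 3 in each (background 4.18%, with 2.44% higher and 1.73% lower). In H2171 limma called 0 channel genes, with 8 at an unadjusted p below 0.05 (background 2.01%, with 1.43% higher and 0.573% lower). The median change over the 103 genes stayed close to that of all genes, with the widest gap in COLO668, at -0.09 against -0.02.

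Of the 103 genes, 63 were called in at least 1 line (61.2%, background 49.3%) and 40 in 0 lines. Calls were of lower signal alone for 30 genes (background 19.1%), of higher signal alone for 16 (background 21.8%), and in opposite directions in different lines for 17 (background 8.36%). A total of 21 genes, 20.4%, were called in at least 3 lines (background 11.3%) and 6, 5.83%, in at least 5 (background 2.16%). Over all pairs of a tested gene and a line, 4.38% were called lower and 5.94% higher. Voltage-gated potassium pores were taken as the tested KCNA, KCNB, KCNC, KCND, KCNF, KCNG and KCNS genes. They had 25 calls lower and 2 higher over 153 pairs of gene and line, that is 16.3% and 1.31% of the pairs. KCNH and KCNQ genes, also gated by voltage, had 14 lower and 4 higher over 81 pairs. Sodium channel pores had 11 lower and 7 higher over 54 pairs, and calcium channel pores 6 lower and 4 higher over 81, or 7.41% and 4.94%, near the share of all genes. The tandem-pore KCNK genes, which carry background potassium current, had 8 lower and 10 higher over 108 pairs, or 7.41% and 9.26%. With quantile normalization the counts lower and higher were 28 and 2 for the voltage-gated potassium pores and 7 and 10 for KCNK, and without the 6 arrays 28 and 5, and 8 and 12.

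**Figure D1:**
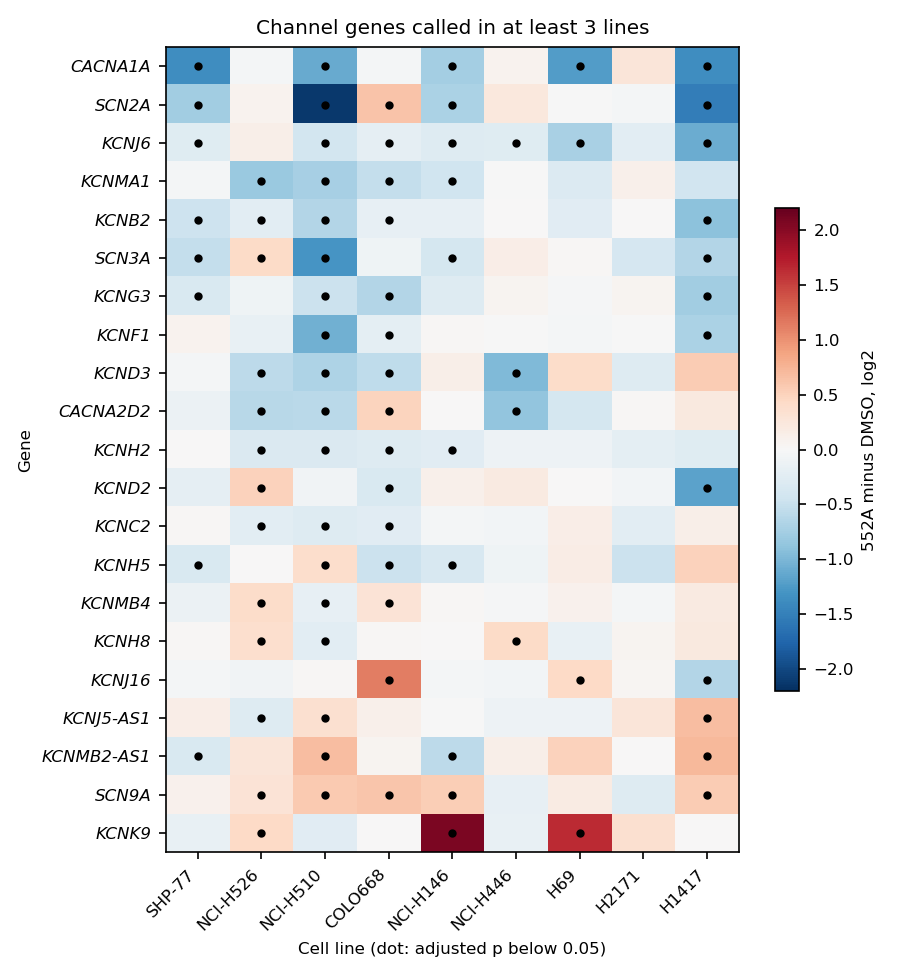
Changes of the 21 channel genes called in at least 3 lines, 552A minus DMSO in log2 units (colour), by gene (rows, from the lowest mean change at the top to the highest) and cell line (columns). Dots mark an adjusted p below 0.05. Most dotted cells are blue, that is lower under 552A. SCN9A stays red in its 5 called lines, and KCNK9 is deep red in NCI-H146 and H69.

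CACNA1A, which encodes the pore of the P/Q-type calcium channel that triggers transmitter release, fell in 5 lines. In H1417 it read 10.69 and 10.84 on the 552A arrays, against 12.17 and 12.11 on the DMSO arrays. In H69 it read 9.90 and 9.84 under 552A, against 11.11 and 11.07 under DMSO. In SHP-77 the 8 arrays under 552A ran from 8.72 to 9.93 with a median of 9.38, and the 6 under DMSO from 10.18 to 11.38 with a median of 10.74. Every 552A array lay below every DMSO array in these 3 lines and in NCI-H510. The changes were -1.37 ± 0.23 in H1417 (limma adjusted p = 1.17e-05), -1.36 ± 0.13 in SHP-77 (adjusted p = 7.7e-12), -1.22 ± 0.23 in H69 (adjusted p = 0.000228) and -1.10 ± 0.13 in NCI-H510 (adjusted p = 2.68e-09), so signals were 2.15- to 2.59-fold lower. Without the 6 arrays of doubtful quality the SHP-77 change was also -1.36. In NCI-H146 the fall was smaller, -0.74 ± 0.13 (adjusted p = 5.5e-05), and the arms overlapped over the 3 days, 10.09 to 11.44 under 552A against 11.25 to 11.97 under DMSO.

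High expression of CACNA1A did not go with a fall in every line. COLO668 had one of the highest levels, 12.90 under 552A against 12.95 under DMSO, and its difference was -0.05 ± 0.13 (adjusted p = 0.84). H2171 read 11.52 and 11.55 under 552A, against 11.29 and 11.24 under DMSO, a difference of 0.27 ± 0.23 (adjusted p = 0.882). In NCI-H526 and NCI-H446 the signal was low in both arms, 7.05 and 7.24 under 552A against 7.09 and 7.17 under DMSO. The other probe sets of CACNA1A moved the same way in 19 of 20 comparisons in the lines with a call. One of them, which ends in _x_at and so may bind related transcripts, moved by 0.01 in SHP-77.

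Promoter windows from RefSeq on GRCh38.p14, 300 bases long and mostly before the start site, were found for 76 of the 103 genes. The windows of CACNA1A and SCN2A, the pores with the largest falls, and of SCN9A, which rose and lies near SCN2A, are shown because they differ in base composition. Capitals mark CpG dinucleotides, and each window is written 5' to 3' on the strand of its gene.
CACNA1A, chr19:13506430-13506729, minus strand: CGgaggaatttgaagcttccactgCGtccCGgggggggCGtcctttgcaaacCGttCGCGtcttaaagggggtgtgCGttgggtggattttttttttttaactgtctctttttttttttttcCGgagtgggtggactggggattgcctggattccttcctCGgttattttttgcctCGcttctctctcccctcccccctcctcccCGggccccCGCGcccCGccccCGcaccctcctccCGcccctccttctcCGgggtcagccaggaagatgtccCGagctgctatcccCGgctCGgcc
SCN2A, chr2:165239164-165239463, plus strand: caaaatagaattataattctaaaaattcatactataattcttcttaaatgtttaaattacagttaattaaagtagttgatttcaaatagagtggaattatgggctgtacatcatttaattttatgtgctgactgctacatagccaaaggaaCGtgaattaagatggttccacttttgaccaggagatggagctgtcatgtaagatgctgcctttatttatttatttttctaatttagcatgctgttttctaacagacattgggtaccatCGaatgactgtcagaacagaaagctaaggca
SCN9A, chr2:166375895-166376194, minus strand: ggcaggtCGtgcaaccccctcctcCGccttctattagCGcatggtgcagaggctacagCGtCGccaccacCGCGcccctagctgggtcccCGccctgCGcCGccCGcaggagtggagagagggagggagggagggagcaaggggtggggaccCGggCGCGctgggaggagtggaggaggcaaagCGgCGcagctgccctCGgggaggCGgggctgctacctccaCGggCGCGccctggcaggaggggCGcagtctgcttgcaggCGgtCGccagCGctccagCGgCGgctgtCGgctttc
CACNA1A had 21 CpGs and 60.7% G and C, SCN9A 28 and 73.3%, and SCN2A 2 and 31.7%. A further start site of SCN2A, at chr2:165240810-165241109, had 1 CpG and 33.3% G and C. The median window of the channel genes held 17 CpGs and 64.5% G and C, against 14 and 58.7% over all 35116 windows.
A set of 4 motifs was searched on both strands in the 116 windows of the 76 genes and in all windows. CACCTG was found in 24.1% of the channel windows and 20.6% of all, CAGCTG in 25% and 17.9%, and GGACAG in 25% and 20.5%. Of the 3 windows shown, CAGCTG occurred in that of SCN9A, at position -61 from the start site. TTCAGCACC, a part of the site that the repressor REST binds, was found in 1.72% of the channel windows, those of KCNK3 and KCNH6, and in 0.376% of all.

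The other calcium channel genes had smaller changes. CACNA1C, an L-type pore, rose by 0.67 ± 0.15 in H1417 (adjusted p = 0.00158) and by 0.44 ± 0.09 in NCI-H510 (adjusted p = 0.000167). CACNA1E, the R-type pore, rose by 0.37 ± 0.10 in COLO668 (adjusted p = 0.00514) and by 0.32 ± 0.10 in NCI-H146 (adjusted p = 0.0477), with overlapping arms in both. CACNA1D, another L-type pore, fell by 0.30 ± 0.07 in SHP-77 (adjusted p = 0.00433). With 1 array left out, the calls of CACNA1C in H1417 (552A day 4 replicate 1, adjusted p = 0.0695) and CACNA1D in SHP-77 (DMSO day 7 replicate 1, adjusted p = 0.0533) were lost. That of CACNA1E was lost for 2 arrays in COLO668, DMSO day 4 replicate 2 and DMSO day 7 replicate 2, with adjusted p of 0.0535 and 0.0813, and for each of the 12 arrays in NCI-H146, with adjusted p up to 0.155. CACNA1B, the N-type pore, and CACNA1H, a T-type pore, were called in 0 lines.

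Among the auxiliary subunits, CACNA2D2, an alpha2delta subunit that brings pores to the membrane, fell in 3 lines and rose in COLO668. In NCI-H446 it ran from 9.14 to 9.63 under 552A with a median of 9.33, against 9.82 to 10.41 under DMSO with a median of 10.22, without overlap. Its changes were -0.87 ± 0.08 in NCI-H446 (adjusted p = 6.44e-12), -0.61 ± 0.08 in NCI-H526, -0.60 ± 0.08 in NCI-H510 and 0.49 ± 0.08 in COLO668 (adjusted p = 8.28e-06). That rise is a mean over days that differed in sign, -0.41 at day 2, 0.56 at day 4 and 1.33 at day 7. CACNA2D1, the alpha2delta subunit that gabapentin binds, fell by 0.72 ± 0.07 in NCI-H526 (adjusted p = 1.29e-11). Of the beta subunits, CACNB2 fell in H69 and SHP-77, by 0.54 and 0.39, and CACNB3 rose by 0.37 ± 0.06 in NCI-H526. The H69 call of CACNB2 was lost for 3 of the 4 arrays left out in turn (all but DMSO day 4 replicate 1), with adjusted p up to 0.255.

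SCN2A, a sodium channel pore of central neurons, had the largest fall of any channel gene. In NCI-H510 it read 6.11 and 6.67 under 552A at day 2, against 8.70 and 8.83 under DMSO. At day 4 it read 6.34 and 6.74 under 552A, against 8.43 and 8.86 under DMSO, and at day 7 6.21 and 6.53, against 8.30 and 8.23. The arms were far apart on every day, and the change of -2.13 ± 0.15 (adjusted p = 7e-17) was a 4.36-fold lower signal. In H1417 SCN2A read 6.92 and 7.22 under 552A, against 8.81 and 8.39 under DMSO, a change of -1.53 ± 0.26 (adjusted p = 1.91e-05). It also fell in SHP-77, by 0.77 ± 0.15 with overlapping arms, where the 552A mean of 6.05 was dim, meaning under 6.09, the median over arrays of the lower quartile. In NCI-H146 it fell by 0.70 ± 0.15 (adjusted p = 0.000961), with overlapping arms.

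COLO668 went the other way. SCN2A rose there by 0.64 ± 0.15 (adjusted p = 0.00124), with 9.55 to 10.24 under 552A, against 8.91 to 9.47 under DMSO, and no overlap. The other probe set of SCN2A had the same direction in all 5 lines, with smaller sizes, -0.93 in NCI-H510 and 0.41 in COLO668. In NCI-H526, H69 and H2171 both arms were dim, at 3.98 to 4.28 under 552A against 3.90 to 4.33 under DMSO.

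SCN3A, a sodium channel pore of developing neurons, lies next to SCN2A on chromosome 2 in the gene order of RefSeq and fell in the same 4 lines. In NCI-H510 it read 8.20 and 8.42 under 552A at day 2, 7.95 and 8.38 at day 4 and 8.11 and 8.13 at day 7. Under DMSO the same line read 9.76 and 9.88, 9.20 and 9.60, and 9.16 and 9.38 on those days. The arms did not overlap, and the change was -1.30 ± 0.10 (adjusted p = 9.08e-16). SCN3A also fell in H1417, by 0.64 ± 0.17, in SHP-77, by 0.52 ± 0.10, and in NCI-H146, by 0.38 ± 0.10. The H1417 call was lost for 3 of the 4 arrays left out in turn (all but DMSO day 4 replicate 2), with adjusted p up to 0.109, and the NCI-H146 call without 552A day 2 replicate 2 (adjusted p = 0.0552). It rose in NCI-H526, by 0.43 ± 0.10 (adjusted p = 0.000536), a line in which SCN2A was dim. In COLO668 its difference was -0.10 ± 0.10 (adjusted p = 0.536).

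SCN9A, the sodium channel pore of pain-sensing neurons, rose in 5 lines. It lies a few genes further along chromosome 2, beside SCN1A and SCN7A. The changes were 0.61 ± 0.09 in COLO668 (adjusted p = 1.59e-07), 0.58 ± 0.09 in NCI-H510 (adjusted p = 7.21e-07), 0.55 ± 0.15 in H1417 (adjusted p = 0.0106), 0.54 ± 0.09 in NCI-H146 (adjusted p = 9.2e-06) and 0.30 ± 0.09 in NCI-H526 (adjusted p = 0.00675). In NCI-H510 the arms did not overlap, 7.29 to 7.76 under 552A against 6.68 to 7.15 under DMSO, and in H1417 it read 6.62 and 6.64 against 6.22 and 5.94, a DMSO mean that was dim. In COLO668, NCI-H146 and NCI-H526 the arms overlapped. Its other probe set had the same direction in 4 of the 5 lines and moved by -0.07 in H1417, where the call was lost for 3 of the 4 arrays left out in turn (all but DMSO day 4 replicate 1), with adjusted p up to 0.246. In NCI-H510, H1417 and NCI-H146, SCN9A was thus higher while SCN2A and SCN3A were lower.

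**Figure D2:**
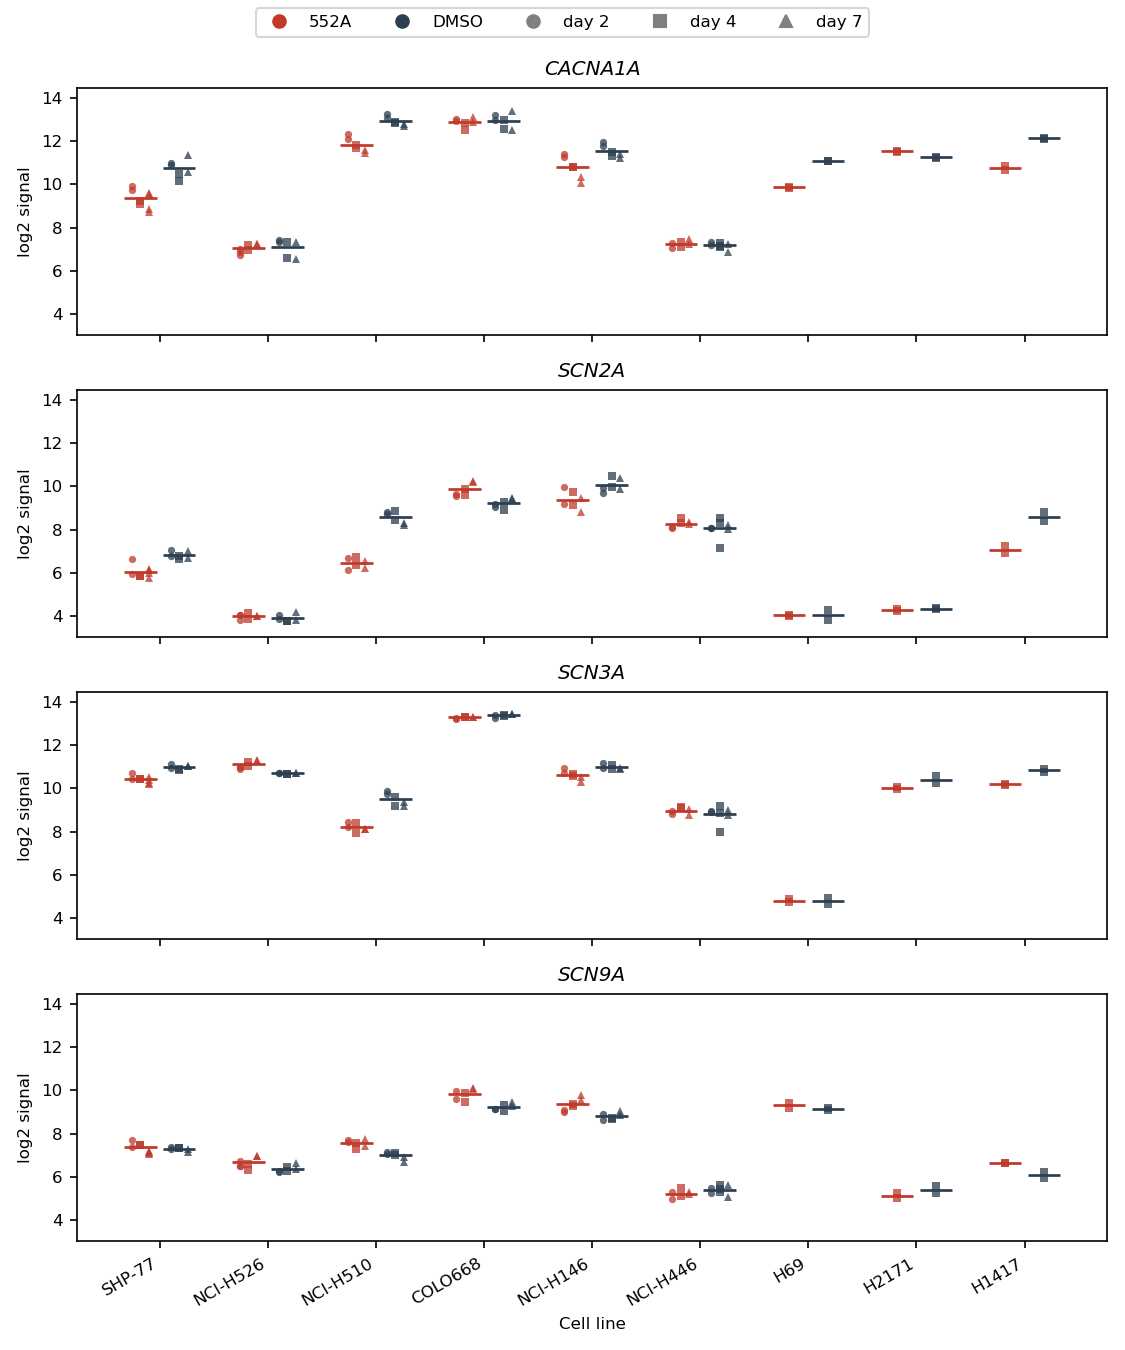
Log2 signal of CACNA1A, SCN2A, SCN3A and SCN9A (vertical axis, 1 panel a gene) on every array, by cell line (horizontal axis), with 552A in red to the left of DMSO in dark blue. Circles, squares and triangles are days 2, 4 and 7, and bars are means over days. For SCN2A in NCI-H510 all 552A points lie between 6.11 and 6.74, below the DMSO points between 8.23 and 8.86.

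SCN1A, a pore of inhibitory neurons, fell by 1.06 ± 0.22 in H1417 (adjusted p = 0.000419), where it read 5.62 and 6.09 under 552A, a dim mean, against 6.92 and 6.91 under DMSO. It fell by 0.66 ± 0.13 in NCI-H146 and was not called in H69, the line with its highest level. SCN8A was called in 0 lines. Of the beta subunits, which modulate the pores and act in cell adhesion, SCN4B rose in NCI-H510 by 1.20 ± 0.13 (adjusted p = 2.07e-10), 5.80 to 6.72 under 552A against 4.97 to 5.34 under DMSO, where the DMSO arm was dim. It rose in NCI-H526 by 1.13 ± 0.13 (adjusted p = 3.28e-10), 7.39 to 8.84 against 6.22 to 7.57, with arms that overlapped. SCN3B fell in both lines, by 0.26 and 0.25.

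Among the voltage-gated potassium pores, KCNB2, a delayed rectifier, fell in 5 lines. In H1417 it averaged 7.04 on the 2 arrays under 552A, against 7.95 on the 2 under DMSO, a change of -0.91 ± 0.12 (adjusted p = 3.55e-08). It fell in NCI-H510 by 0.65 ± 0.07 and in SHP-77 by 0.46 ± 0.06, in NCI-H526 by 0.24 and in COLO668 by 0.18. Its arms overlapped in COLO668 and in none of the other 4 lines, and without the 6 arrays of doubtful quality the COLO668 difference was -0.16 (adjusted p = 0.0666). Leaving out 9 of the 12 COLO668 arrays in turn also ended that call, with adjusted p up to 0.143. KCND3, a pore of the fast transient current, fell in NCI-H446 by 0.98 ± 0.10 (adjusted p = 3.25e-10), where it ran from 8.20 to 8.87 under 552A with a median of 8.46, against 9.31 to 9.91 under DMSO with a median of 9.46. It also fell in NCI-H510, NCI-H526 and COLO668, by 0.68, 0.58 and 0.57. KCNG3, a silent subunit that modifies KCNB channels, fell in H1417, COLO668, NCI-H510 and SHP-77, by 0.33 to 0.76, and 5 of the 14 SHP-77 arrays left out in turn ended the call there (adjusted p up to 0.0727).

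KCND2, the relative of KCND3 in the transient current, rose in 1 line and fell in H1417 and COLO668. It rose by 0.51 ± 0.11 in NCI-H526 (adjusted p = 0.000434), 8.87 to 9.21 under 552A against 8.34 to 8.66 under DMSO. In H1417 it fell by 1.18 ± 0.20 to a dim mean of 5.81 under 552A, against 6.99 under DMSO. That change was -0.79 without 552A day 4 replicate 1 and -1.58 without 552A day 4 replicate 2. In a limma fit on the H1417 arrays alone the call was lost (adjusted p = 0.0873). In COLO668 KCND2 fell by 0.33 ± 0.12 with overlapping arms. The COLO668 call was lost for 6 of the 12 arrays left out in turn, with adjusted p up to 0.271 (without DMSO day 7 replicate 2), while without the 6 arrays of doubtful quality the change was -0.45 (adjusted p = 0.000168). KCNA1, a pore that limits repetitive firing, fell by 0.94 ± 0.15 in H1417 and by 0.37 ± 0.08 in NCI-H146. KCNC1, a pore of fast-firing neurons, rose by 0.37 ± 0.08 in NCI-H526 and fell by 0.43 ± 0.09 in NCI-H510. KCNF1, a silent subunit chosen after its values were seen, fell by 1.05 ± 0.07 in NCI-H510 (adjusted p = 6.05e-19), 9.20 to 9.73 under 552A against 10.07 to 10.91 under DMSO.

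KCNH2, the ERG channel of the cardiac action potential, fell by a similar size in 4 lines, 0.33 ± 0.06 in NCI-H526, 0.31 ± 0.06 in NCI-H510, 0.28 ± 0.06 in COLO668 and 0.24 ± 0.06 in NCI-H146, with adjusted p between 8.72e-06 and 0.00317. Its arms did not overlap in NCI-H510 and overlapped in the other 3 lines, and the NCI-H146 call was lost without DMSO day 4 replicate 1 (adjusted p = 0.0528). KCNQ5, a pore of the M-current that damps firing, fell in NCI-H526. It read 7.19, 6.83 and 6.66 under 552A at day 2, 6.57 and 6.53 at day 4 and 5.77 and 5.86 at day 7. Under DMSO the line read 7.65 and 7.77, 7.53 and 7.55, and 7.61 and 7.45 on those days. The 552A arrays lay below every DMSO array, and the change was -1.18 ± 0.09 (adjusted p = 1.72e-15). In COLO668 KCNQ5 rose by 0.43 ± 0.10 (adjusted p = 0.000494).

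Of the potassium channels that calcium opens, KCNMA1, the large-conductance BK pore, fell in 4 lines. In NCI-H526 it ran from 9.46 to 10.11 under 552A with a median of 9.75, against 10.51 to 10.65 under DMSO with a median of 10.54, and the arms did not overlap. Its changes were -0.81 ± 0.10 in NCI-H526 (adjusted p = 6.24e-09), -0.73 ± 0.11 in NCI-H510, -0.52 ± 0.11 in COLO668 and -0.44 ± 0.11 in NCI-H146, the last of which was not called without DMSO day 4 replicate 1 (adjusted p = 0.0560). KCNMB2, a beta subunit that inactivates BK channels, fell in NCI-H510 by 1.10 ± 0.16 (adjusted p = 1.99e-07), 6.48 to 7.34 under 552A against 7.76 to 8.51 under DMSO. KCNN3, a small-conductance pore that shapes the pause after a spike, fell in NCI-H526 by 0.96 ± 0.10 (adjusted p = 2.5e-11), 8.84 to 9.45 under 552A against 9.86 to 10.44 under DMSO. KCNN4, the intermediate-conductance pore of blood cells and epithelia, read 7.62 and 7.46 under 552A in H69, against 7.00 and 6.94 under DMSO, and rose by 0.57 ± 0.12 (adjusted p = 0.000722). Without H69 552A day 4 replicate 1 that adjusted p was 0.0542.

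Among the inward rectifiers, which hold the resting potential, KCNJ6, a pore opened by G proteins, fell in 7 lines. In H1417 it read 7.82 and 7.97 under 552A, against 8.97 and 9.01 under DMSO, a change of -1.09 ± 0.13 (adjusted p = 5.47e-09). In H69 it read 8.57 and 8.63, against 9.23 and 9.40, a change of -0.72 ± 0.13 (adjusted p = 0.000153). The falls in NCI-H510, NCI-H146, NCI-H446, SHP-77 and COLO668 were smaller, 0.20 to 0.41, and in those lines the arms overlapped, apart from NCI-H510. Without the 6 arrays the COLO668 difference was -0.13 (adjusted p = 0.227), and 11 of its 12 arrays left out in turn ended that call. The same held for 5 of 13 arrays in NCI-H446 (adjusted p up to 0.148), 3 of 14 in SHP-77 (up to 0.0864) and 2 of 12 in NCI-H146 (up to 0.0625). In NCI-H526 and H2171 the differences of KCNJ6 were 0.13 ± 0.07 and -0.24 ± 0.13 and were not called. All 7 comparisons of its other probe set went the same way.

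KCNJ2, the classical strong inward rectifier, had calls in opposite directions. It rose in NCI-H446 by 0.90 ± 0.11 (adjusted p = 2.52e-08), 9.65 to 9.95 under 552A against 8.68 to 9.23 under DMSO. It fell in NCI-H510 by 0.85 ± 0.12 (adjusted p = 7.06e-08), 6.48 to 6.72 against 7.36 to 7.60. Neither line had overlapping arms. KCNJ16, a rectifier of kidney and glia, rose in COLO668 by 1.12 ± 0.08 (adjusted p = 4.22e-17), 5.78 to 7.43 under 552A against a dim 4.96 to 5.62 under DMSO. Where no limit on dim probe sets was applied, another probe set stood for KCNJ16 and its change was 0.02 (adjusted p = 0.835). KCNJ16 also rose in H69, by 0.44 ± 0.14 (adjusted p = 0.0494), with 8.92 and 8.87 under 552A against 8.50 and 8.40 under DMSO, a call that each of the 4 arrays left out in turn ended (adjusted p up to 0.380). In H1417 it fell by 0.65 ± 0.14 (adjusted p = 0.000505), where both arms were dim, 4.78 and 4.63 under 552A against 5.27 and 5.43 under DMSO. The other probe set had 0.09 in H69 and -0.04 in H1417, neither called.

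Among the tandem-pore channels, KCNK9, an acid-sensitive background channel, had the largest rise of any channel gene. In NCI-H146 it read 10.40 and 10.29 under 552A at day 2, 10.40 and 10.41 at day 4 and 10.36 and 10.55 at day 7. Under DMSO the line read 8.46 and 8.26, 8.27 and 8.20, and 8.32 and 8.46 on those days. The arms were far apart at every day, and the change was 2.07 ± 0.11 (adjusted p = 5.1e-21), a 4.21-fold higher signal. In H69 KCNK9 read 10.29 and 10.24 under 552A, against 8.59 and 8.67 under DMSO, a change of 1.63 ± 0.19 (adjusted p = 1.23e-08). In NCI-H526 it rose by 0.43 ± 0.11 (adjusted p = 0.00205). Its other probe set went the same way in these lines with smaller sizes, 0.42 in NCI-H146, 0.11 in H69 and 0.01 in NCI-H526. H2171 had the highest level, 12.08 and 11.94 under 552A against 11.63 and 11.69 under DMSO, a difference of 0.35 ± 0.19 that was not called.

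KCNK17, another background channel, rose by 0.59 in NCI-H446 and in COLO668, with overlapping arms in both, and by 0.78 in COLO668 without the 6 arrays of doubtful quality. KCNK3, the nearest relative of KCNK9, rose by 0.44 ± 0.11 in H1417 and fell by 0.43 ± 0.06 in NCI-H446. The H1417 call was lost without 552A day 4 replicate 2 (adjusted p = 0.165) or DMSO day 4 replicate 2 (adjusted p = 0.122). KCNK16 was the 1 gene that rose in SHP-77, by 0.20 ± 0.06 (adjusted p = 0.0204), and the call was lost without SHP-77 552A day 4 replicate 2 (adjusted p = 0.0894), DMSO day 2 replicate 1 (0.0658), DMSO day 4 replicate 2 (0.0601) or DMSO day 7 replicate 1 (0.0585). Of the genes that carry a channel symbol but encode no subunit, the antisense transcripts KCNMB2-AS1 and KCNJ5-AS1 rose in H1417 by 0.71 ± 0.19 and 0.67 ± 0.17. Without H1417 552A day 4 replicate 2 their adjusted p were 0.190 and 0.183. That of KCNMB2-AS1 was 0.339 without DMSO day 4 replicate 2, and that of KCNJ5-AS1 was 0.127 without DMSO day 4 replicate 1. KCNMB2-AS1 also rose in NCI-H510, by 0.69 ± 0.11 (adjusted p = 2.46e-06), the line in which KCNMB2 fell. It fell in NCI-H146, by 0.58 ± 0.11 (adjusted p = 0.000165), to a dim mean under 552A, and in SHP-77, by 0.33 ± 0.11 (adjusted p = 0.0406), a call that 9 of the 14 arrays left out in turn ended (adjusted p up to 0.124). KCNJ5-AS1 rose in NCI-H510, by 0.35 ± 0.10 (adjusted p = 0.00627), where its DMSO mean was dim. It fell in NCI-H526, by 0.28 ± 0.09 (adjusted p = 0.0222), a call that 4 of 13 arrays left out in turn ended (adjusted p up to 0.140).

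With the line as the replicate, limma called 0 of the 103 genes at day 4 over the 9 lines (background 0.0521%). At an unadjusted p below 0.05 there were 11, of which 9 were lower and 2 higher. Of all genes 12.5% passed that limit, 819 lower and 1093 higher. The fit with arrays in place of lines as replicates called 21, and its share over all genes is not given here. KCNH2 was lower in 9 of 9 lines, with a mean day 4 change of -0.18 ± 0.04 (adjusted p = 0.0971). KCNMA1 and KCNB2 were lower in 8 of 9 lines, at -0.39 ± 0.09 (adjusted p = 0.118) and -0.33 ± 0.08 (adjusted p = 0.141). SCN9A was higher in 7 of 9 lines, at 0.23 ± 0.09 (adjusted p = 0.349). KCNJ14 and KCNN4 had means of 0.07 and 0.15. The median day 4 change was -0.01 over the channel genes and 0.00 over all genes.

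**Figure D3:**
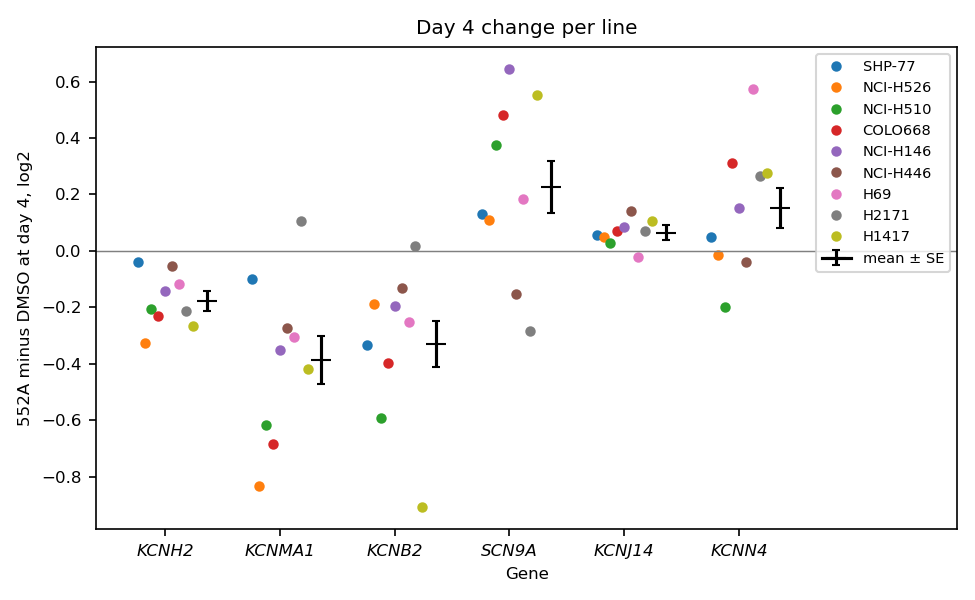
Day 4 change, 552A minus DMSO in log2 units (vertical axis), of the 6 channel genes with the smallest p in each direction over lines (horizontal axis). Each coloured point is a line, and the black mark is the mean with its standard error over 9 lines. All 9 points of KCNH2 lie below 0, from -0.33 to -0.04.

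The size of the response differed between the 6 time course lines for 57 of the 103 genes in a moderated F test in limma (background 38.1%). SCN2A had the widest spread, 2.76 between -2.13 in NCI-H510 and 0.64 in COLO668 (adjusted p = 2.61e-15). KCNK9 followed, with 2.33 between -0.25 in NCI-H510 and 2.07 in NCI-H146 (adjusted p = 9.66e-19). KCNJ2 spanned 1.75, SCN3A 1.73, KCNQ5 1.61 and KCNMB2 1.44. NCI-H510 had the lowest change for all of these genes apart from KCNQ5, whose lowest change was in NCI-H526.

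The response changed from day 2 to day 7 for 5 channel genes in COLO668 and for 1 in NCI-H526. The 5 make 4.85% of the channel genes, near the background of 4.61%, and the 1 makes 0.971%, against 0.508%. Without the 6 arrays of doubtful quality there were 2 calls in NCI-H526 and 1 in NCI-H146 (background 1.07% and 0.0782%). COLO668 then kept 1 array of each arm at day 7, so its count is not given. With a replicate block there were 9 in COLO668 and 2 in NCI-H526 (background 6.61% and 0.599%). In COLO668, CACNA2D2 read 7.81 and 8.12 under 552A at day 2, 8.64 and 8.54 at day 4 and 9.61 and 9.76 at day 7. Under DMSO it read 8.37 and 8.39, 8.20 and 7.86, and 8.32 and 8.39 on those days. The 552A arrays were thus below the DMSO arrays at day 2 and above them at days 4 and 7, and the change at day 7 minus that at day 2 was 1.75 ± 0.21 (adjusted p = 3.53e-08). The same difference was 1.28 ± 0.19 for KCNJ16 (adjusted p = 9.21e-06) and, for KCNK17, 1.18 ± 0.34 (adjusted p = 0.033). KCNK17 read 12.34 and 12.13 under 552A at day 7, against 11.36 and 10.46 under DMSO.

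KCNK5, a background channel that responds to alkaline pH, and KCNMB4, a neuronal BK beta subunit, were chosen after their values were seen. Their differences between day 7 and day 2 were 0.94 ± 0.22 (adjusted p = 0.00544) and 0.47 ± 0.13 (adjusted p = 0.0246). In COLO668 1 array of each arm at day 7 had a wide gap between the ACTB 3' and 5' probe sets, 1.34 under 552A and 1.11 under DMSO. Without the 6 arrays of doubtful quality the differences were 1.64 for CACNA2D2, 1.34 for KCNJ16, 1.73 for KCNK17, 0.98 for KCNK5 and 0.36 for KCNMB4. These rest on 1 array of each arm at day 7, so no calls are given for them. In NCI-H526 the change of KCNQ5 was -0.82 at day 2, -0.99 at day 4 and -1.72 at day 7, a difference of -0.90 ± 0.22 (adjusted p = 0.0396).

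SHP-77, NCI-H510, NCI-H146 and NCI-H446 had 0 such calls in limma (background 0.111%, 0.15%, 0.0521% and 0.228%), and unadjusted p-values were below 0.05 for 7, 12, 6 and 6 channel genes.

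**Figure D4:**
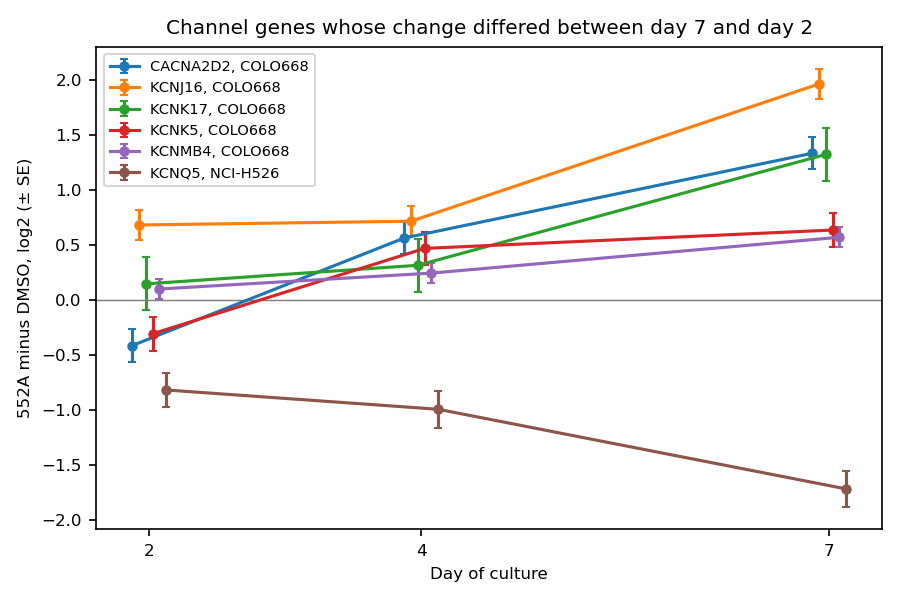
Change of 6 channel genes, 552A minus DMSO in log2 units with the standard error of the fit (vertical axis), at days 2, 4 and 7 (horizontal axis). The 5 COLO668 genes climb, CACNA2D2 to 1.33 and KCNJ16 to 1.96 at day 7, and KCNQ5 in NCI-H526 descends to -1.72.

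Under DMSO at day 4 the lines differed in these genes, by a median range somewhat above that of all tested genes. The level of a line was set against the mean of the other 8 lines and called at an adjusted p below 0.05 and a difference of at least 1. Over the 9 lines 113 calls were higher and 88 lower. NCI-H146 had 20 channel genes higher and 9 lower, where 7.02% of all genes were higher and 3.84% lower. NCI-H510 had 19 higher and 3 lower (background 9.33% and 4.99%), COLO668 15 and 10 (7.15% and 7.68%), H69 13 and 10 (8.62% and 7.34%) and H1417 12 and 10 (8.08% and 6.38%). NCI-H446 and H2171 had 11 and 10 each (6.17% and 9.27%, and 7.08% and 7.22%). NCI-H526 had 6 higher and 16 lower (7.18% and 7.04%), and SHP-77 6 and 10 (7.45% and 6.73%).

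The median range over lines was 1.64 for the channel genes and 1.45 for all tested genes. A range of at least 4 was found for 21 channel genes and a range below 1 for 33. A total of 33 genes lay above 7.41 in all 9 lines and 17 in 1 line only, and those 17 had to differ between lines to be tested. The share of all tested genes with such ranges or levels is not given here, and a level above 7.41 need not mean expression. Levels below 6.09 are dim, so ranges that end there may be lower limits.

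The widest range was that of SCN3A, 8.63. COLO668 had 13.39 ± 0.05 (SD, n = 2), NCI-H146, SHP-77, H1417, NCI-H526 and H2171 followed at 10.40 to 10.99, NCI-H510 and NCI-H446 stood at 9.40 and 8.66, and H69 at 4.76 ± 0.21. SCN2A ranged over 6.49. It was highest in NCI-H146, 10.25 ± 0.35 (SD, n = 2), stood at 9.09, 8.64 and 8.60 in COLO668, NCI-H510 and H1417 and at 8.0 ± 0.75 in NCI-H446 (SD, n = 3), and was dim in H2171, H69 and NCI-H526, at 4.33, 4.03 and 3.75. SCN1A was high in H69 alone, at 9.91 ± 0.29, and NCI-H146 came next at 7.10. H69 thus had the lowest SCN3A and the highest SCN1A of the 9 lines. SCN9A stood at 9.19 in COLO668, 9.13 in H69 and 8.69 in NCI-H146, and at 5.40 to 7.33 in the others.

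CACNA1A ranged over 5.93. NCI-H510 and COLO668 had 12.89 ± 0.05 and 12.78 ± 0.28 (SD, n = 2 each) and did not differ beyond that spread, H1417 had 12.14 ± 0.04, and NCI-H146, H2171, H69 and SHP-77 had 10.33 to 11.40. NCI-H446 and NCI-H526, at 7.18 ± 0.09 (SD, n = 3) and 6.96 ± 0.54 (SD, n = 2), lay about 4 units below the mean of the other lines, with differences of -3.93 and -4.17. CACNA2D1 ranged over 5.79, with 13.36 in NCI-H146 and 7.57 in NCI-H526, the only line below 10. CACNA1B was highest in H2171, at 10.10 ± 0.10, and lowest in COLO668 and SHP-77, at 6.26 and 5.65. CACNA1E was highest in H69, at 9.91 ± 0.08, and CACNB3 kept within 9.21 to 10.76 over all 9 lines.

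KCNA1 split the lines. NCI-H146, H69, NCI-H446 and H1417 had 12.35, 12.14, 11.96 and 10.02, and the other 5 lines had 5.76 to 6.00. KCNT2, a sodium-activated potassium pore, ranged over 5.17, with 9.41 to 10.37 in H1417, NCI-H146, H69, SHP-77 and NCI-H510, 7.97 in H2171 and 5.19 to 5.63 in COLO668, NCI-H446 and NCI-H526. KCNE4, an auxiliary subunit that inhibits several potassium pores, stood at 11.46 ± 0.02 in SHP-77 (SD, n = 2) and at 5.86 to 6.63 in the other lines. KCNK9 stood at 11.66 ± 0.04 in H2171 and at 7.25 to 8.63 in the others. KCNH2 and KCNK3 were above the limit of 7.41 in every line, at 9.08 to 10.50 and 9.34 to 10.25.

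**Figure D5:**
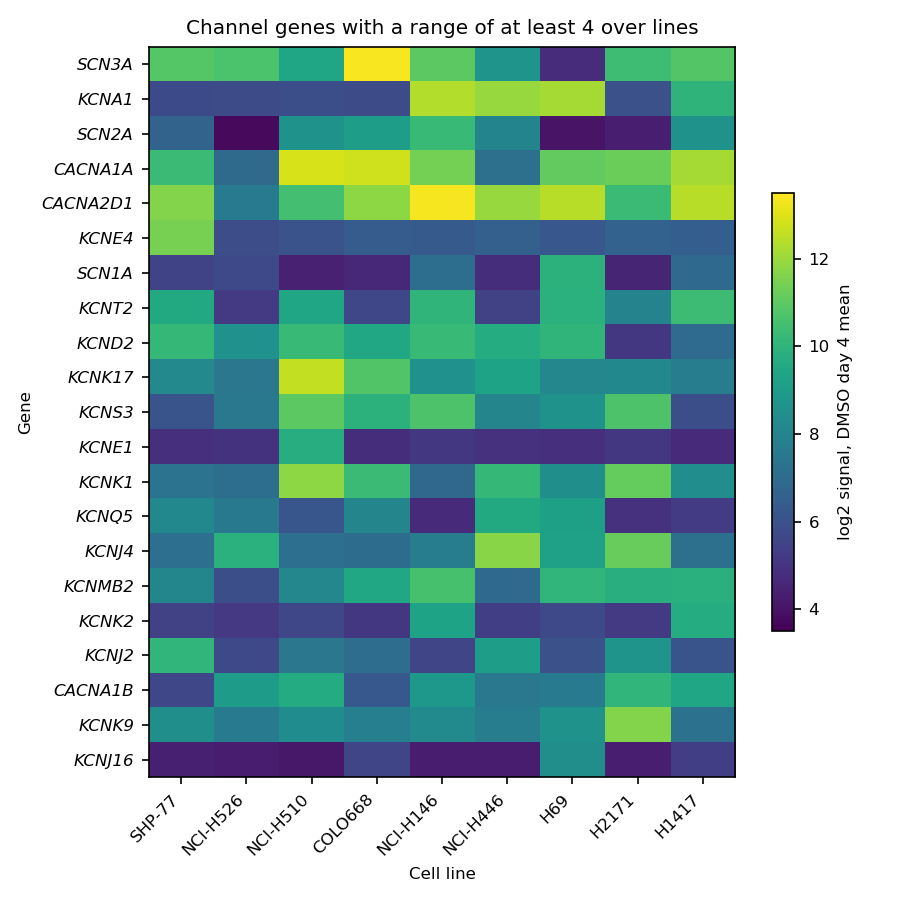
Mean log2 signal under DMSO at day 4 (colour) of the 21 channel genes whose range over lines was at least 4 (rows, by range) in the 9 lines (columns). Colours are comparable along a row and not between rows, since probe sets differ in brightness. SCN3A runs from 4.76 in H69 to 13.39 in COLO668, and KCNE4 is bright in SHP-77 alone.

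Genes that act with these channels were followed through a list of 27, of which 26 were tested, with HCN pacemaker channels, the NALCN leak channel and its partners, ankyrins, FGF homologous factors, RIM proteins and REST. Of the 26, NCI-H510 had 2 higher and 5 lower, NCI-H526 1 and 3, COLO668 and H1417 1 and 2 each, NCI-H146 2 and 0, SHP-77 1 and 0, and NCI-H446, H69 and H2171 1 and 1 each. The share called was 26.9% in NCI-H510, against 15% of all genes, and 11.5% in COLO668 and 15.4% in NCI-H526, below the 21.2% and 21.1% of all genes there. It was 3.85% in SHP-77 (background 8.14%) and 11.5% in H1417 (background 9.24%). NCI-H146, NCI-H446, H69 and H2171 had 7.69% each (background 6.39%, 5.59%, 4.18% and 2.01%). ANK3, the ankyrin that clusters sodium channels at the axon initial segment, rose in H1417 by 1.03 ± 0.11 (adjusted p = 6.45e-11), and read 7.97 and 8.24 under 552A, against 7.02 and 7.14 under DMSO. In NCI-H526 it fell by 1.01. FGF14, which binds sodium channel pores, fell in H1417 by 1.00 ± 0.14 (adjusted p = 2.61e-07), with 8.92 and 9.18 under 552A against 9.95 and 10.16 under DMSO. FGF13, its relative, rose in H69 by 0.87 ± 0.23 (adjusted p = 0.0164), with 9.96 and 10.07 against 9.08 and 9.22. The arms did not overlap in any of these 3 comparisons.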

How the data were processed

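The authors deposited 1 log2 expression value per probe set and array for 88 Affymetrix HG-U133 Plus 2.0 arrays. How arrays were summarized and normalized is not given in the sources used here. Deposited values were used without rescaling. The array held 54675 probe sets, of which 62 were control probe sets and were left out. GEO's platform annotation, with symbols updated through RefSeq, gave 1 gene to 41091 and several genes to 1801. Probe sets with several genes were not used. Those with 1 gene covered 19775 genes. The probe set with the highest mean stood for a gene. Those ending in _x_at, which may cross-hybridise, stood for a gene only where there was no other, as for 3 of the channel genes. Genes with a group mean above 7.41 were tested (15352). The number of arrays limits the precision.

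The arrays fell into 42 groups by line, treatment and day: 39 of 2 arrays, 2 of 3 and 1 of 4. A linear model with a mean per group was fitted to all 88 arrays with limma 3.58.1 in R 4.3.3 (46 residual degrees of freedom), so that lines shared 1 estimate of the spread. P-values measure the spread between arrays, which may be technical, as no label says that they are separate cultures. Reading used the R package data.table (version 1.17.8), and sequences and figures used matplotlib 3.10.9, numpy 2.4.6 and pandas 2.3.3 under Python 3.11.15. For each line the days were averaged with equal weight, and the shared response used the 9 line values at day 4 as replicates. P-values were Benjamini-Hochberg adjusted over all tested genes. The code was tested on simulated data.

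Members and gene lists were chosen with earlier results of these data known. Genes named were the 2 largest called changes of 1 sign on every day per line and direction, the 8 widest ranges under DMSO, the 6 widest ranges of response, the 3 smallest p per direction at day 4, a set of well-known channel genes, and the 3 partner genes with the largest change. Alternatives covered normalization, filter, probe set choice, variance trend, replicate block, arrays of doubtful quality, an ACTB covariate, single days, a fit on the arrays of 1 line, and leaving out each array or line.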

Additional observations from a re-analysis of the deposited data

Results flagged for a closer look

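The response to 552A differed between the 6 time course lines, by the F test, with a range of 2.76 for SCN2A, 2.33 for KCNK9, 1.75 for KCNJ2, 1.73 for SCN3A, 1.61 for KCNQ5 and 1.44 for KCNMB2, all in log2 units. Each of these ranges runs between a fall and a rise or a value near 0, and for SCN2A, KCNJ2, SCN3A and KCNQ5 both ends were called. The response also differed between day 7 and day 2 by the test of that difference. It was -0.899 for KCNQ5 in NCI-H526, and in COLO668 it was 1.75 for CACNA2D2, 1.28 for KCNJ16, 1.18 for KCNK17, 0.942 for KCNK5 and 0.47 for KCNMB4. In COLO668 the ACTB 3' minus 5' signal was 1.34 on 1 of the 552A arrays of day 7 and 1.11 on 1 of the DMSO arrays. Without the 6 arrays of doubtful quality, 1 array of each arm was left at day 7 in COLO668. The KCNMB4 difference was then 0.36, and the other 4 COLO668 differences ran from 0.98 to 1.73. The part of RNA integrity in these differences was not tested further. Dixon's criterion flagged no sample in the 1 group of 4 arrays, and the other groups held too few arrays for it. Values of single lines did stand far from the others. Under DMSO at day 4, KCNE4 stood at 11.46 in SHP-77, with 6.63 in the next line and 5.86 in the lowest. KCNK9 stood at 11.66 in H2171, with 8.63 in the next line and 7.25 in the lowest.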

How the results depend on the processing

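Of 109 changes of a named gene in a line, 6 had the opposite sign on a single day: at day 2 alone CACNA2D2, KCND2 and KCNK5 in COLO668 had -0.41, 0.052 and -0.31 and KCNA1 in NCI-H146 0.071, and at day 7 alone KCNB2 and KCNJ6 in COLO668 had 0.0019 and 0.028. None of these 6 passed the test on that day, and no other alternative turned a sign. For the counts that moved the cause was not tested unless named. The share of all genes called under each alternative is not given here, so the counts below have no background beside them. Single days have fewer arrays: at day 2 alone the count of channel genes called was 2 in COLO668, 10 in NCI-H510, 8 in NCI-H526, 2 in NCI-H146, 3 in NCI-H446 and 1 in SHP-77. At day 4 alone it was 7 in COLO668, 16 in NCI-H510, 10 in NCI-H526, 2 in NCI-H146 and 2 in SHP-77, and at day 7 alone 9 in NCI-H146 and 4 in NCI-H446. On the arrays of 1 line alone, which leaves fewer degrees of freedom, it was 11 in H1417 and 5 in NCI-H446. With the stricter filter, which tests fewer genes, it was 3 in H69 and 7 in SHP-77. Without the 6 arrays of doubtful quality it was 10 in H69. The count of 6 genes whose response changed from day 2 to day 7 moved too. Its new value is not given, since COLO668 then kept 1 array of each arm at day 7. The array-level fit, which takes arrays and not lines as replicates, called 21 genes in the shared response at day 4. The line-level fit called 0, and the share of all genes called in the array-level fit is not given here. Leaving out each array moved the count over 3 to 6 in H69, with 3 without H69 552A day 4 replicate 1, and over 7 to 16 in SHP-77. SHP-77 had 7 calls without DMSO day 7 replicate 1 and 8 without DMSO day 4 replicate 2. The ranges were 21 to 28 in COLO668, 14 to 19 in H1417, 10 to 16 in NCI-H146, 6 to 10 in NCI-H446, 28 to 33 in NCI-H510 and 20 to 26 in NCI-H526, and 196 to 208 for levels under DMSO.

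Replicate numbers were not taken as pairs. That needs a correlation above 0.1 between same-numbered 552A and DMSO arrays for every line and day. Of 21 combinations of line and day 11 had one, among them all 3 days of SHP-77. The median correlation was 0.16, with a range of -0.40 to 0.54. With the replicate block, calls were 18 in SHP-77, 26 in NCI-H526, 36 in NCI-H510, 29 in COLO668 and 16 in NCI-H146. They were 8 in NCI-H446, 5 in H69, 0 in H2171 and 23 in H1417. The share of all genes called in each line in that fit is not given here. The day 7 against day 2 count was 11. Levels under DMSO could not be fitted with that block. Low signals limit the dim genes, whose differences may be too small.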
